A study of Mus musculus with 21 samples.

Results

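Chemokines are small secreted or membrane-anchored proteins that guide leukocytes, and their receptors are G protein-coupled receptors on the cells that are guided. The chemokine ligands and receptors were examined in podocyte fractions of mouse kidney as the genes with the symbols Ccl, Cxcl, Cx3cl, Xcl, Ccr, Cxcr, Cx3cr, Xcr or Ackr followed by a digit and with 10 or more counts over all libraries. The rule found 60 of the 27179 genes in the files, 37 ligands and 23 receptors. Another 4 matching genes were below 10 counts: Ccl1 with 9 counts, Ccl26 with 6, Cxcl15 with 2 and Ccl21c with 0. The filter on low counts left 46 members for the test, 26 ligands and 20 receptors.

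Each library came from 1 male C57BL/6J wildtype mouse. There were 6 young mice of 4 months, which received no treatment, 7 middle-aged mice given saline, and 8 middle-aged mice given MCC950, a small-molecule inhibitor of the NLRP3 inflammasome (labelled NLRP3i). Both middle-aged groups were injected intraperitoneally for 6 weeks from 18 months of age, with the inhibitor at 10 mg/kg, and were 19.5 months old at the end. Cortex was digested and podocytes were pulled out on magnetic beads by an antibody against nephrin, so the fraction is enriched for podocytes and is not a pure population. Age and injection cannot be told apart in the comparison of saline with young mice. Total counts ranged from 27375870 to 36827823 in young, from 45772937 to 84876399 in saline and from 35440472 to 58247271 in MCC950 libraries, so depth and age also went together.

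The libraries held markers of several cell types in addition to podocytes. The 12 podocyte markers summed to 782 to 1596 CPM (counts scaled to a common effective library size) in young, 327 to 587 in saline and 409 to 634 in MCC950 libraries. The 11 macrophage and monocyte markers summed to 450.5 to 2263, 1634 to 3959 and 1082 to 4052 CPM in the same order. The 8 T cell markers summed to 7.57 to 19.2, 18.0 to 28.4 and 9.76 to 76.9 CPM, and the 7 B and plasma cell markers to 39.4 to 180.1, 399.9 to 581 and 112.1 to 652 CPM. The 10 proximal tubule markers summed to 1652 to 6935, 1846 to 4431 and 2714 to 8190.0 CPM. No marker of these lists was at 0 in all libraries of a group. The mean log2 level of the macrophage and monocyte list was 0.97 higher in saline than in young libraries (p = 0.0128 in an exact permutation test, two-sided, adjusted p = 0.0199 over 14 lists), and that of the podocyte list differed by -1.56 (p = 0.00117, adjusted p = 0.00544 in the same test). In bulk samples, a change in the number of cells of a type and a change in the RNA per cell cannot be told apart.

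Chemokine receptors couple to Gi proteins, and the ligand family names follow the spacing of conserved cysteines (CC, CXC, CX3C and XC). Inflammatory ligands such as Ccl2 are induced in macrophages, tubules and glomerular cells and draw monocytes, while homeostatic ligands such as Cxcl13 place lymphocytes within tissue. In the kidney, podocytes are known to make Cxcl12, and fractalkine (Cx3cl1) is made by endothelial and epithelial cells as a membrane-anchored protein that binds Cx3cr1 on monocytes and macrophages. Atypical receptors (Ackr) bind chemokines without G protein signaling, and carry or degrade them.

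Ccl3 and Ccl4, made by macrophages and other leukocytes, had the highest levels per length in every group. On the scale of mean CPM per kilobase of exon (± SD), Ccl3 was at 142 ± 73.9 in young (n = 6) and 201 ± 68.5 in saline libraries (n = 7), and Ccl4 was at 131 ± 64.9 and 184 ± 63.1. These 2 genes overlap each other in the annotation and their levels differed by less than 1 SD. Cxcl16, a membrane-anchored ligand of Cxcr6, was the third ligand in every group, at 35.5 ± 14.4 in young and 56.8 ± 15.4 in saline libraries. Among receptors Cxcr4, the receptor of Cxcl12, led in every group, at 66.2 ± 26.4 in young, 95.7 ± 15.4 in saline and 71.5 ± 30.2 in MCC950 libraries (n = 8). Cx3cr1, the fractalkine receptor of resident macrophages, was second, at 22.3 ± 12.6 in young and 36.4 ± 11.7 in saline libraries. At the other end of the tested members, Ccr9 was at 0.0123 ± 0.00869 in young libraries.

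**Figure D1:**
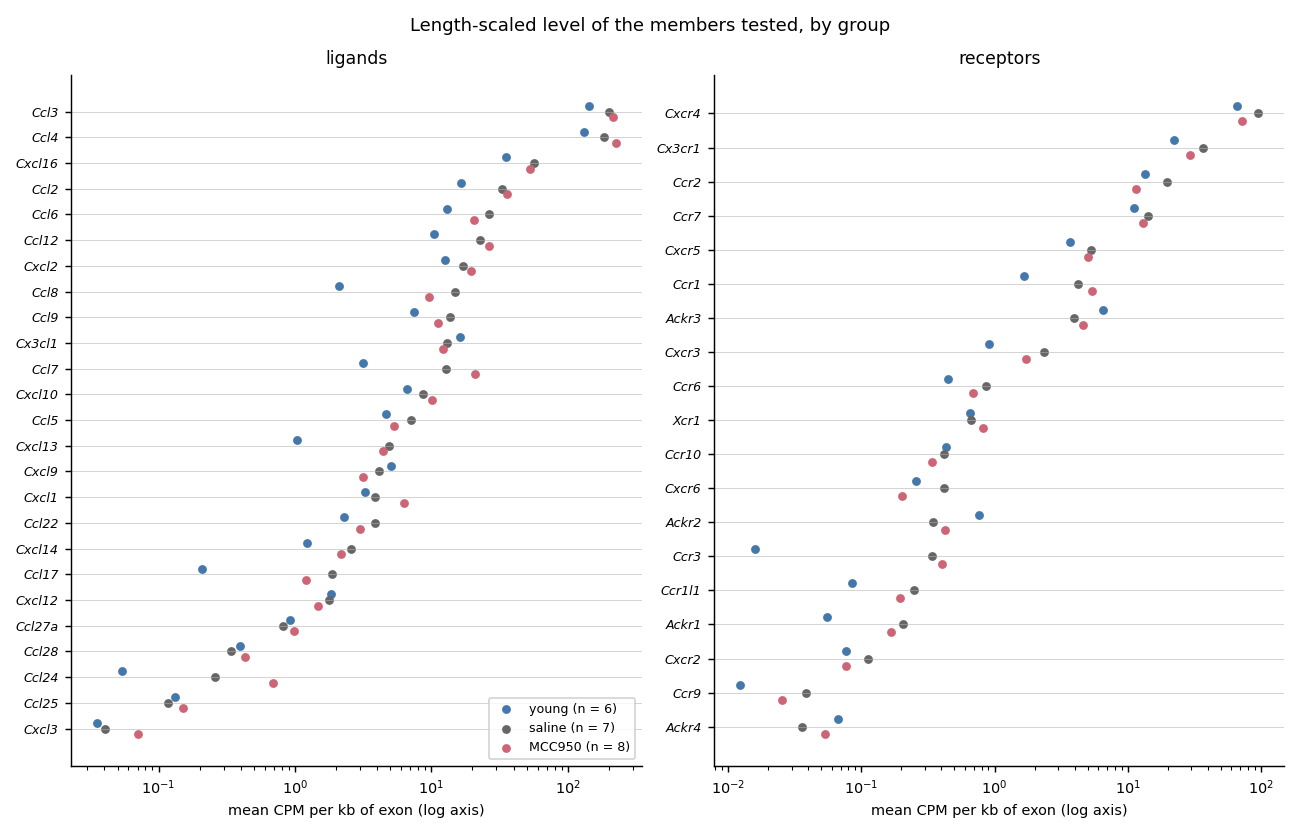
Mean CPM per kilobase of exon (log axis) of 44 tested members with an annotated exon length, ligands on the left and receptors on the right, with 1 point per group (6 young, 7 saline and 8 MCC950 libraries). Ccl3, Ccl4 and Cxcl16 lead the ligands and Cxcr4 and Cx3cr1 lead the receptors in each group.

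Middle-aged saline mice were compared with young mice to see how the chemokine system of the fraction differed with age. Of the 46 members tested, 10 were higher at an adjusted p under 0.05 (Ccl6, Ccl8, Ccl9, Ccl17, Cxcl13, Ccr1, Ccr3, Ccr9, Cxcr3 and Ackr1) and 3 were lower (Cx3cl1, Ackr2 and Ackr3). Over all 16377 genes tested, 12.2% were higher and 12.4% were lower in this comparison. The log2 fold change was positive for 35 of the 46 members, with a median of 0.57 against 0.02 over all genes tested. In 7 members (Ccl6, Ccl8, Cxcl13, Ccr1, Ccr3, Cxcr3 and Ackr1) every saline library was above every young library, and in 0 members every saline library was below. The groups did not overlap in 9.37% of all genes tested.

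Inflammatory CC ligands were positive in 10 of 10 members tested, with a median log2 fold change of 1.00. Of these, 3 rose, where 12.2% of all genes were higher. Ccl8, the monocyte chemoattractant protein MCP-2, lay at 0.0996, 1.15 and 1.63 CPM (lowest, median and highest) in young libraries, 2.85, 7.78 and 10.9 in saline and 1.61, 3.21 and 12.2 in MCC950 libraries. Its saline libraries all lay above its young libraries, with a log2 fold change of 2.88 (SE 0.55, adjusted p = 0.000779), which is a 7.38-fold rise. Ccl6, a ligand of Ccr1 that is made by macrophages, was at 8.51, 23.9 and 37.1 CPM in young, 41.6, 44.8 and 60.1 in saline and 16.05, 35.0 and 56.1 in MCC950 libraries. The young and saline libraries did not overlap, and the log2 fold change was 1.02 (SE 0.27, adjusted p = 0.00848). Its neighbor Ccl9, also a Ccr1 ligand, was at 7.47, 24.8 and 33.4 CPM in young, 29.6, 41.6 and 52.7 in saline and 13.5, 32.0 and 61.0 in MCC950 libraries. Its groups overlapped, its log2 fold change was 0.86 (SE 0.31, adjusted p = 0.0475), and it lost the threshold in 14 of the 21 fits that left out 1 library, with the highest adjusted p of 0.117 without young replicate 3.

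The other inflammatory CC ligands did not pass the test with age in the fit of all 21 libraries. Ccl2 (MCP-1), the main ligand of Ccr2, was at 7.17, 17.7 and 35.9 CPM in young, 18.9, 35.0 and 65.4 in saline and 12.1, 22.3 and 158 in MCC950 libraries. Young and saline libraries of Ccl2 overlapped, and the log2 fold change with age was 0.98 (SE 0.51, adjusted p = 0.162). Without MCC950 replicate 8, which enters the shared estimate of the spread, the adjusted p of Ccl2 with age was 0.0363. Ccl7 (MCP-3) was at 0.821, 2.49 and 4.96 CPM in young, 3.95, 9.24 and 21.8 in saline and 3.09, 4.81 and 94.5 in MCC950 libraries, with a log2 fold change with age of 2.02 (SE 0.78, adjusted p = 0.0627). Ccl12 (MCP-5) was at 1.07, 5.83 and 9.58, 6.10, 12.5 and 17.5 and 5.30, 9.40 and 45.2 CPM in the same order, with a log2 fold change with age of 1.13 (SE 0.47, adjusted p = 0.0862). Both overlapped between young and saline libraries. Ccl24, an attractant of eosinophils that binds Ccr3, was at 0, 0.0323 and 0.219 CPM in young, 0.133, 0.330 and 0.596 in saline and 0.0848, 0.282 and 5.56 in MCC950 libraries, and its log2 fold change with age was 2.22 (SE 1.16, adjusted p = 0.172). Ccl5 (RANTES), made by T cells and macrophages, was at 2.34, 3.89 and 8.65 CPM in young, 3.20, 6.95 and 8.91 in saline and 2.08, 4.09 and 8.96 in MCC950 libraries, which overlapped in all 3 groups, with a log2 fold change with age of 0.61 (SE 0.34, adjusted p = 0.194). The macrophage inflammatory proteins Ccl3 and Ccl4 had log2 fold changes of 0.50 and 0.49 and did not pass the test. Without MCC950 replicate 8 the adjusted p with age was also under 0.05 for Ccl7 (0.0012), Ccl12 (0.0278) and Ccl24 (0.0129). In that fit Ccl3, Ccl4 and Ccl5 were still not past the test.

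The inflammatory CC ligands lie in 2 gene clusters on chromosome 11 (GRCm38). Ccl2, Ccl7, Ccl11, Ccl12 and Ccl8 lie between positions 82035577 and 82116799, and the 4 tested among them had log2 fold changes with age between 0.98 and 2.88. Ccl5, Ccl9, Ccl6, Ccl3 and Ccl4 lie between 83525778 and 83664683, with log2 fold changes between 0.49 and 1.02. Every tested gene of both clusters was positive. The 3 that rose, Ccl6, Ccl8 and Ccl9, are those given above, where 12.2% of all genes were higher. Ccl11 (eotaxin) was not tested: it had 0 counts in all 6 young libraries, 23 counts over the saline and 25 over the MCC950 libraries.

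Lymphoid and homeostatic ligands were split. Cxcl13, the B cell attractant that binds Cxcr5, was at 0.672, 1.13 and 2.22 CPM in young, 2.24, 3.88 and 11.9 in saline and 1.56, 5.28 and 7.54 in MCC950 libraries. Every saline library was above every young library, and the log2 fold change was 2.24 (SE 0.41, adjusted p = 0.000533), a 4.73-fold rise. Ccl17, a ligand of Ccr4 made by dendritic cells and macrophages, was at 0, 0.0965 and 0.331 CPM in young, 0.280, 1.12 and 1.62 in saline and 0.0904, 0.662 and 1.299 in MCC950 libraries, with a log2 fold change of 3.18 (SE 0.67, adjusted p = 0.00179). The young libraries together held 17 counts of Ccl17, of which young replicate 2 held 10, and that library alone overlapped the saline range. Cxcl12, the ligand of Cxcr4, was at 10.6, 15.3 and 18.5 CPM in young, 11.3, 13.9 and 16.9 in saline and 8.10, 11.7 and 15.9 in MCC950 libraries. The 3 groups overlapped and the log2 fold change of Cxcl12 with age was -0.066 (SE 0.17, adjusted p = 0.813). The other 5 tested ligands of this list (Ccl22, Ccl25, Ccl27a, Ccl28 and Cxcl14) had log2 fold changes between -0.22 and 1.09 and did not pass the test.

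The promoters of the 2 ligands that rose most among those with a TATA box match are shown because both genes were higher with age with no overlap between libraries. The sequences are the 250 bases before the RefSeq start site on GRCm38.p6, 5′ to 3′, with TATAAA in capitals.
Cxcl13 (chr5:95956689-95956938, plus strand): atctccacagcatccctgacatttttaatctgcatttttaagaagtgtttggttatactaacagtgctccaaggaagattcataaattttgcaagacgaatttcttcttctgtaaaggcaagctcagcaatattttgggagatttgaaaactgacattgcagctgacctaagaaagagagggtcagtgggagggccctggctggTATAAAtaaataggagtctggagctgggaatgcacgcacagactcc
Ccl8 (chr11:82114935-82115184, plus strand): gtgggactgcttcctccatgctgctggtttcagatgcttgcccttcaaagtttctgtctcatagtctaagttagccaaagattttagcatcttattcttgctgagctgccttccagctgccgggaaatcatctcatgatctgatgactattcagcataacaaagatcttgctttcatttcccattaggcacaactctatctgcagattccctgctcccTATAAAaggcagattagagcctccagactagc
The match began at position -46 from the start site in Cxcl13 and at -32 in Ccl8. Of the 45 members with a promoter window, TATAAA on either strand was in 7 of 26 ligands and 5 of 19 receptors, and in 7.04% of the 12136 tested genes with a window. A match is a description of these letters, not a site.

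Ligands that draw neutrophils (Cxcl1, Cxcl2 and Cxcl3) and interferon-induced ligands (Cxcl9, Cxcl10 and Cxcl11) did not pass the test with age. Cxcl1 was at 3.45, 6.09 and 9.37 CPM in young, 3.48, 7.45 and 9.63 in saline and 9.17, 10.3 and 17.8 in MCC950 libraries, with a log2 fold change with age of 0.24 (SE 0.23, adjusted p = 0.483). Cxcl10 was at 8.64, 15.1 and 19.6 CPM in young, 10.96, 20.1 and 26.8 in saline and 13.6, 22.01 and 33.5 in MCC950 libraries, with a log2 fold change of 0.41 (SE 0.24, adjusted p = 0.218). Cxcl9 was at 5.65, 16.8 and 20.9 CPM in young, 6.33, 13.2 and 18.2 in saline and 3.25, 7.11 and 21.7 in MCC950 libraries, with a log2 fold change of -0.28 (SE 0.40, adjusted p = 0.660). Young and saline libraries overlapped in all 3 of these ligands, which bind Cxcr2 (Cxcl1) or Cxcr3 (Cxcl9 and Cxcl10). Cxcl2 and Cxcl3 had log2 fold changes of 0.44 and 0.20, and Cxcl11 of -0.50.

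The membrane-anchored ligands differed in direction. Cx3cl1 (fractalkine) was at 54.6, 63.7 and 73.6 CPM in young, 42.2, 48.9 and 59.4 in saline and 37.2, 47.0 and 62.1 in MCC950 libraries. Cx3cl1 fell by 0.33 on the log2 scale (log2 fold change -0.33 (SE 0.11, adjusted p = 0.0284)), the smallest size among the 13 members past the test, with overlapping libraries. Its adjusted p was 0.0561 without young replicate 1 and 0.0524 without saline replicate 5. The fall of Cx3cl1 was also not past the test with total library size only (adjusted p = 0.243), and its log2 fold change was -0.19 (adjusted p = 0.216) with the macrophage and monocyte marker score as a covariate, -0.043 (adjusted p = 0.930) with the podocyte score and -0.029 (adjusted p = 0.927) with the T cell score. Cxcl16 was at 43.5, 113.6 and 149.9 CPM in young, 90.9, 170.1 and 226 in saline and 92.6, 135 and 272 in MCC950 libraries, with a log2 fold change of 0.68 (SE 0.28, adjusted p = 0.0766). Cxcl16 overlaps Zmynd15 in the annotation, and the strand setting of the counting is not given in the sources used here.

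Receptors mainly of myeloid cells were positive in 8 of 8 members tested with age (median of the log2 fold changes 0.64). Of these, 2 rose, where 12.2% of all genes were higher. Ccr3, the eotaxin receptor of eosinophils, had the largest log2 fold change of the 46 members. It was at 0, 0.0364 and 0.129 CPM in young, 0.377, 0.754 and 3.03 in saline and 0.257, 0.841 and 2.57 in MCC950 libraries, and the young libraries held 8 counts in all against 427 in saline and 650 in MCC950 libraries. Saline and young libraries did not overlap, and the log2 fold change was 4.47 (SE 0.88, adjusted p = 0.000972), an estimate that rests on very few young counts. Ccr1, a receptor of Ccl3, Ccl5, Ccl6 and Ccl9 on monocytes and macrophages, was at 1.72, 4.15 and 8.13 CPM in young, 9.33, 11.9 and 15.6 in saline and 5.19, 9.39 and 51.7 in MCC950 libraries. Its saline libraries all lay above its young libraries, with a log2 fold change of 1.37 (SE 0.44, adjusted p = 0.0272). The adjusted p of Ccr1 lay between 0.0529 and 0.0669 when young replicate 1, 2 or 3 or saline replicate 2 or 7 was left out, and was 0.00192 without MCC950 replicate 8.

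The abundant monocyte and macrophage receptors did not pass the test. Ccr2, which marks inflammatory monocytes, was at 36.9, 95.7 and 147 CPM in young, 81.9, 125 and 196 in saline and 32.9, 76.2 and 125 in MCC950 libraries, with a log2 fold change with age of 0.54 (SE 0.31, adjusted p = 0.216). Cx3cr1 was at 29.2, 97.9 and 183 CPM in young, 96.1, 149.9 and 236 in saline and 43.7, 131 and 234 in MCC950 libraries, with a log2 fold change of 0.71 (SE 0.37, adjusted p = 0.178). In both receptors the young libraries spread over more than a 3-fold range and overlapped the saline libraries. The lowest young value of both was in young replicate 1, whose macrophage and monocyte markers summed to 450.5 CPM, the lowest of the group.

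Receptors mainly of lymphocytes were positive in 7 of 8 members tested with age, with a median of 0.64. Of these, 2 rose, where 12.2% of all genes were higher. Cxcr3, the receptor of Cxcl9, Cxcl10 and Cxcl11 on activated T cells, was at 0.452, 1.37 and 3.14 CPM in young, 3.57, 3.96 and 4.90 in saline and 1.21, 2.78 and 5.24 in MCC950 libraries. The saline libraries were all above the young libraries and close to each other, and the log2 fold change of Cxcr3 was 1.41 (SE 0.32, adjusted p = 0.00331). Ccr9, a receptor of gut-homing T cells, plasmacytoid dendritic cells and others that binds Ccl25, was at 0, 0.127 and 0.265 CPM in young, 0.227, 0.457 and 0.549 in saline and 0.0578, 0.249 and 0.512 in MCC950 libraries, with 23 counts in all in young and 164 in saline libraries. Its log2 fold change was 1.56 (SE 0.48, adjusted p = 0.0219), with an adjusted p of 0.0501 without young replicate 3 and 0.0524 without young replicate 4. Its ligand Ccl25 had a log2 fold change of -0.17.

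Other lymphocyte receptors did not pass the test. Cxcr4 was at 50.8, 132 and 171 CPM in young, 127, 180.0 and 203 in saline and 71.5, 114.7 and 228 in MCC950 libraries, with a log2 fold change with age of 0.53 (SE 0.27, adjusted p = 0.165). Cxcr5, the Cxcl13 receptor of B cells, was at 4.07, 8.47 and 30.4 CPM in young, 7.23, 17.9 and 29.0 in saline and 6.90, 15.3 and 30.2 in MCC950 libraries, with a log2 fold change of 0.55 (SE 0.41, adjusted p = 0.348). Ccr7, which guides dendritic cells and naive lymphocytes to lymph nodes, was at 7.59, 16.9 and 52.8 CPM in young, 12.1, 28.8 and 41.8 in saline and 10.0, 24.1 and 48.2 in MCC950 libraries, with a log2 fold change of 0.35 (SE 0.39, adjusted p = 0.556). Young replicate 6 held the highest young values of Cxcr5 and Ccr7, above the highest saline library. Without that library the adjusted p of Cxcr5 with age was 0.0438. Cxcr5 overlaps Bcl9l in the annotation.

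Atypical receptors were the only list of members with falls in more than 1 gene. Ackr2, a scavenger of inflammatory CC chemokines on lymphatic endothelium, was at 0.898, 2.60 and 3.39 CPM in young, 0.507, 1.00 and 1.61 in saline and 0.723, 1.12 and 2.71 in MCC950 libraries. All but the lowest young library lay above the highest saline library, and the log2 fold change was -1.16 (SE 0.31, adjusted p = 0.00919). Ackr3, a scavenger of Cxcl12 also called Cxcr7, was at 12.1, 19.2 and 32.0 CPM in young, 10.5, 12.8 and 17.2 in saline and 9.75, 16.6 and 22.4 in MCC950 libraries. The libraries overlapped at the lower end and the log2 fold change was -0.73 (SE 0.20, adjusted p = 0.0113). In the opposite direction Ackr1, the Duffy receptor of venules and red cells, was at 0, 0.0783 and 0.133 CPM in young, 0.155, 0.303 and 0.438 in saline and 0.116, 0.223 and 0.421 in MCC950 libraries, with 12 counts over the young libraries. Its young and saline libraries did not overlap and the log2 fold change was 1.97 (SE 0.48, adjusted p = 0.00492). Ackr1 overlaps Cadm3 in the annotation, which held 2325 counts against 242 of Ackr1, and the strand setting is not given. Ackr4, a scavenger of Ccl19, Ccl21 and Ccl25, had a log2 fold change of -0.95 (SE 0.44, adjusted p = 0.117). Along with the falls of Ackr2 and Ackr3, the 9 endothelium markers summed to 460.1 to 812 CPM in young and 254 to 386 CPM in saline libraries, and 8 of them fell. Podocyte (11 of 12), mesangium and smooth muscle (5 of 7) and collecting duct markers (4 of 6) also fell, and 0 of 10 proximal tubule markers did. With the podocyte score as a covariate the log2 fold change with age was 0.093 (adjusted p = 0.947) for Ackr2 and -0.86 (adjusted p = 0.305) for Ackr3. The part of these cell types in the result was not tested.

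**Figure D2:**
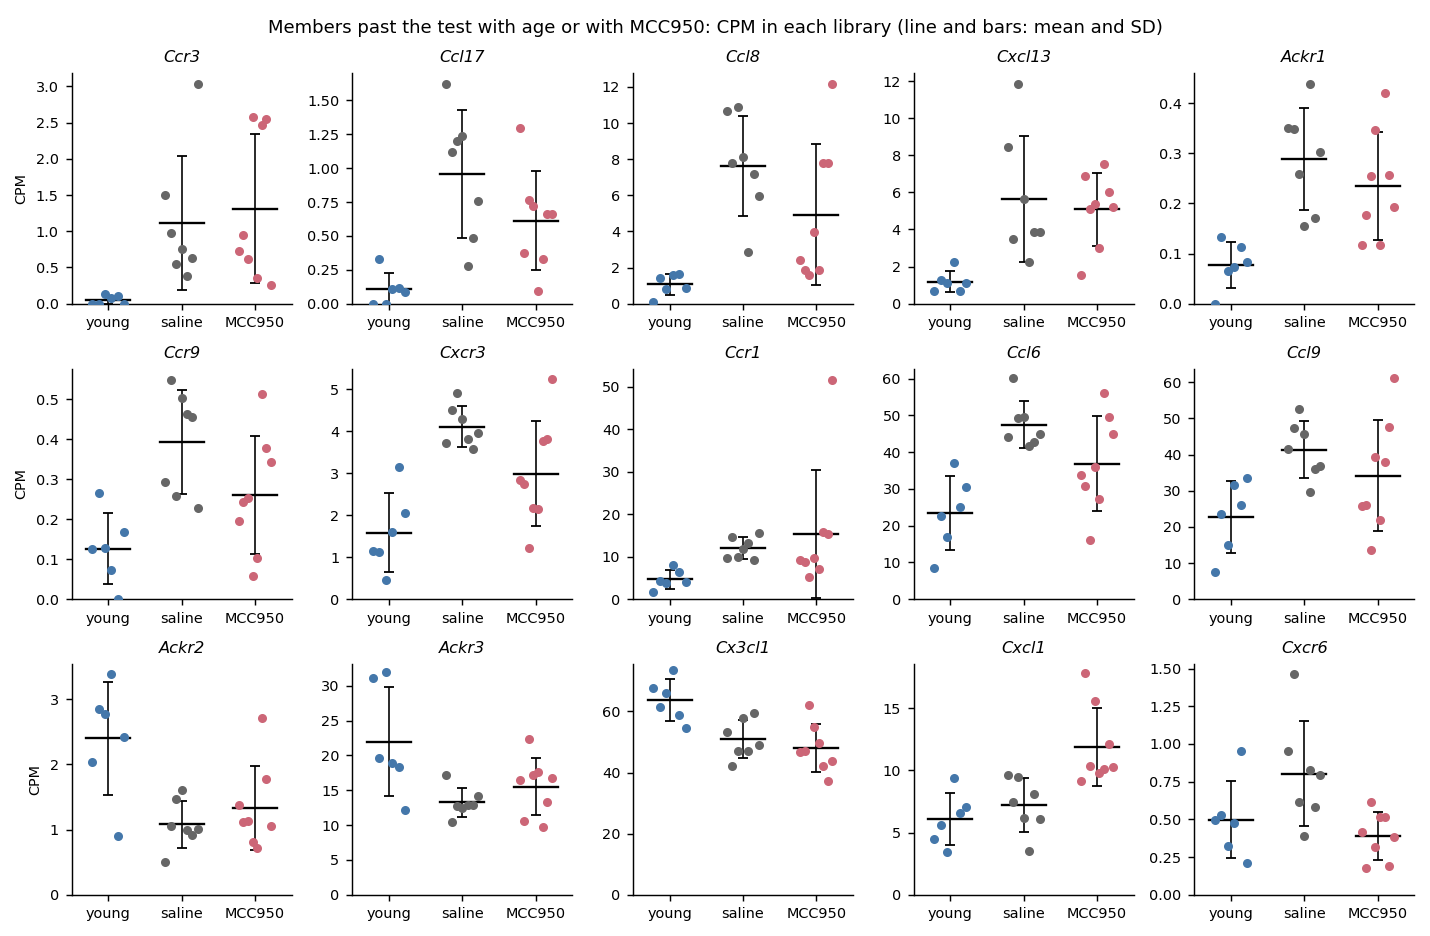
CPM in each library (points) of the 15 members past the test with age or with MCC950, with the mean (line) and SD (bars) of 6 young, 7 saline and 8 MCC950 libraries; each panel has its own axis from 0. Ccl8, Cxcl13, Ccr3, Cxcr3, Ccl6, Ccr1 and Ackr1 show saline libraries that all lie above the young libraries, and Ccr1 shows 1 MCC950 library at 51.7 CPM.

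Leukocyte markers and podocyte markers moved with these members, and the marker scores and age cannot be told apart in fits that hold both. When the macrophage and monocyte score entered the fit as a covariate, 7 members (Ccl6, Ccl8, Ccl17, Cxcl13, Ccr3, Cxcr3 and Ackr1) remained higher with age, and Ccl9, Ccr1 and Ccr9 were not past the test. With the same score the falls of Ackr3 (log2 fold change -0.32, adjusted p = 0.216) and Cx3cl1 were not past the test, Ackr2 remained lower, and Cxcl9 was lower (-1.20, adjusted p = 0.00560). This fit called 10.7% of all genes higher and 10.5% lower. With the T cell score 2 members were higher, and with the podocyte score 1 member was higher, in fits that called 166 genes higher and 272 lower, and 13 higher and 2 lower, of all 16377 genes. DESeq2, whose fit kept all 60 members, called 16 of them higher and 3 lower, and 10.7% and 12.5% of the 19860 genes in its fit.

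Downstream of the receptors, the 30 genes listed for chemokine receptor signaling had 13 higher and 2 lower with age (median of the log2 fold changes 0.58), where 12.2% of all genes were higher and 12.4% were lower. The rises included Rac2, Dock2, Elmo1 and Vav1 (Rac activation), Pik3cd and Pik3r5 (phosphoinositide 3-kinase), the kinases Fgr, Lyn and Ptk2b, the receptor kinases Grk3 and Grk6, and Rgs14. Fgr had the largest rise, from a mean of 12.4 ± 4.92 CPM (SD, n = 6) to 34.3 ± 6.01 CPM (SD, n = 7), with a log2 fold change of 1.47 (SE 0.27, adjusted p = 0.000630). The G protein subunits Gnai1 and Gnai3 fell, with log2 fold changes of -0.72 and -0.16. Among 8 tested proteases that cut or shed chemokines, Mmp9 rose (log2 fold change 2.43 (SE 0.46, adjusted p = 0.000680)), as did Mmp14 (0.96) and Ctsk (1.27), and Dpp4, which trims the amino end of many chemokines, fell (log2 fold change -0.92 (SE 0.12, adjusted p = 0.0000340)). Among 11 tested chemoattractants and receptors outside the symbol rule, the formyl peptide receptors Fpr1 and Fpr2 and Cklf rose and Ppbp fell.

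MCC950-treated mice were compared with saline-treated mice of the same age to see whether inhibition of NLRP3 altered these genes. Of the 46 members 1 was higher (Cxcl1) and 1 was lower (Cxcr6), where 11.9% of all genes tested were higher and 4.86% were lower. The libraries of the groups overlapped in every member and did not overlap in 1.74% of all genes; without adjustment 1 member was higher and 2 were lower at a p under 0.05. The members' median log2 fold change was -0.12, with 0.11 for ligands and -0.30 for receptors, against 0.0028 over all genes. Receptors were negative in 14 of 20 members, and those mainly of lymphocytes in 8 of 8, of which 1 fell. This comparison shares its saline libraries with the comparison by age.

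Cxcl1 (also KC), the neutrophil attractant that binds Cxcr2, was at 3.48, 7.45 and 9.63 CPM in saline and 9.17, 10.3 and 17.8 in MCC950 libraries. In 7 of the 8 MCC950 libraries Cxcl1 lay above every saline library, and MCC950 replicate 1 at 9.17 CPM lay below saline replicates 1 and 3. The log2 fold change was 0.73 (SE 0.21, adjusted p = 0.0248), a 1.65-fold rise, and it was not past the test without saline replicate 4, where the adjusted p was 0.062, or 7, where it was 0.0558, or with libraries thinned to equal depth (adjusted p = 0.0678). The other neutrophil attractants were not past the test, with log2 fold changes of 0.18 (SE 0.35, adjusted p = 0.766) for Cxcl2 and 0.87 (SE 0.61, adjusted p = 0.348) for Cxcl3.

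The promoters of the neighbors Cxcl1 and Cxcl2, and of the interferon-induced Cxcl10, are shown because the NF-kappaB family, which acts downstream of interleukin 1, is known to drive these genes. The windows are as above. Capitals mark matches to the 10-base NF-kappaB consensus by name, on either strand, with overlapping matches merged, and in Cxcl10 also GAAANNGAAA, an interferon-stimulated element.
Cxcl1 (chr5:90890995-90891244, plus strand): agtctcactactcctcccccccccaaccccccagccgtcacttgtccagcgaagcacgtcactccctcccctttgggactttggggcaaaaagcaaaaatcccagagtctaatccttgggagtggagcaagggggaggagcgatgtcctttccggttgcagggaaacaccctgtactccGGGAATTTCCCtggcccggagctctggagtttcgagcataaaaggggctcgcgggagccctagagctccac
Cxcl2 (chr5:90903649-90903898, plus strand): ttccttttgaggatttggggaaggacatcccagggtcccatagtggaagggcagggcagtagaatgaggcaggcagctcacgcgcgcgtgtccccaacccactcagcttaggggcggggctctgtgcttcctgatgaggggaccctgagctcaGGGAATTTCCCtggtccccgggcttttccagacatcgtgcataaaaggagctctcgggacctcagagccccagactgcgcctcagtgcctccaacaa
Cxcl10 (chr5:92348890-92349139, minus strand): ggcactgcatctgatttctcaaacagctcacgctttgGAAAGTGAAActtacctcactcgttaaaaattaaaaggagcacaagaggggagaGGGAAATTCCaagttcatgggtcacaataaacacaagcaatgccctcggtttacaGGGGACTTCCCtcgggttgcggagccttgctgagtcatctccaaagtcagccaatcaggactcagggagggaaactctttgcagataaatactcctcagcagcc
The overlapping matches began at positions -71 and -70 in Cxcl1 and at -97 and -96 in Cxcl2. In Cxcl10 the NF-kappaB matches began at -159, -104 and -103 and the interferon element at -213. Among members, 6 of 26 ligand and 3 of 19 receptor windows held an NF-kappaB match, against 8.81% of the 12136 windows of tested genes. The interferon element was in 3 ligand and 0 receptor windows, against 2.78%. These shares describe letters only, and the windows of Cxcl1 and Cxcl2 hold similar matches while only Cxcl1 passed the test; the difference between the 2 genes was not tested.

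Cxcr6, the Cxcl16 receptor of memory T and NKT cells, was at 0.209, 0.486 and 0.954 CPM in young, 0.387, 0.796 and 1.46 in saline and 0.177, 0.399 and 0.615 in MCC950 libraries. Saline replicates 4, 6 and 3 lay within the MCC950 range and the other 4 saline libraries lay above it. The log2 fold change was -1.04 (SE 0.31, adjusted p = 0.0263). Without saline replicate 2 the adjusted p was 0.0673, and with libraries thinned to equal depth it was 0.0733. It was 0.0514 with the replicate number as a block, 0.0939 with the podocyte score as a covariate and 0.115 with total library size only. Cxcr6 lies within Fyco1 in the annotation, which held 30528 counts against 587 of Cxcr6. The T cell markers summed to 18.0 to 28.4 CPM in saline and 9.76 to 76.9 CPM in MCC950 libraries. Their median list value moved in the same direction (-0.40 on the log2 scale, 0 of 8 past the test). With the T cell score as a covariate the log2 fold change of Cxcr6 was -0.98 (adjusted p = 0.097). The part of T cells in the result was not tested in another way.

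Ccr2 had the next smallest p-value among receptors, with a log2 fold change of -0.76 (SE 0.29, adjusted p = 0.0717). Ccr2 came under 0.05 without young replicate 1, with an adjusted p of 0.0459, or MCC950 replicate 2, with 0.0407, with the podocyte score as a covariate (log2 fold change -1.05, adjusted p = 0.0131), and in DESeq2 (adjusted p = 0.0352). Members that were higher with age were not past the test with MCC950: the log2 fold changes were -0.63 (SE 0.43, adjusted p = 0.339) for Ccl8 and -0.14 (SE 0.33, adjusted p = 0.805) for Cxcl13. Cxcr3 gave -0.46 (SE 0.28, adjusted p = 0.269) and Ccl6 gave -0.37 (SE 0.24, adjusted p = 0.318). Ccr3 gave 0.25 (SE 0.52, adjusted p = 0.778). For the members that were lower with age, the log2 fold changes with MCC950 were 0.31 (SE 0.29, adjusted p = 0.489) for Ackr2, 0.23 (SE 0.19, adjusted p = 0.435) for Ackr3 and -0.083 (SE 0.099, adjusted p = 0.605) for Cx3cl1. The other members past the test with age lay between -0.64 (Ccl17) and 0.35 (Ccr1). Ccl5, Cxcl9, Cxcl10, Cxcl12, Cxcl16, Ccr7, Cx3cr1, Cxcr4 and Cxcr5 lay between -0.42 (Cxcr4) and 0.20 (Cxcl10). Ccl7, Ccl12 and Ccl24 gave 0.71, 0.22 and 1.37, and none of these members passed the test. Without MCC950 replicate 8, which stood apart in Ccl7, Ccl12, Ccl24 and Ccr1, their log2 fold changes with MCC950 turned to -0.88, -0.32, -0.53 and -0.24.

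**Figure D3:**
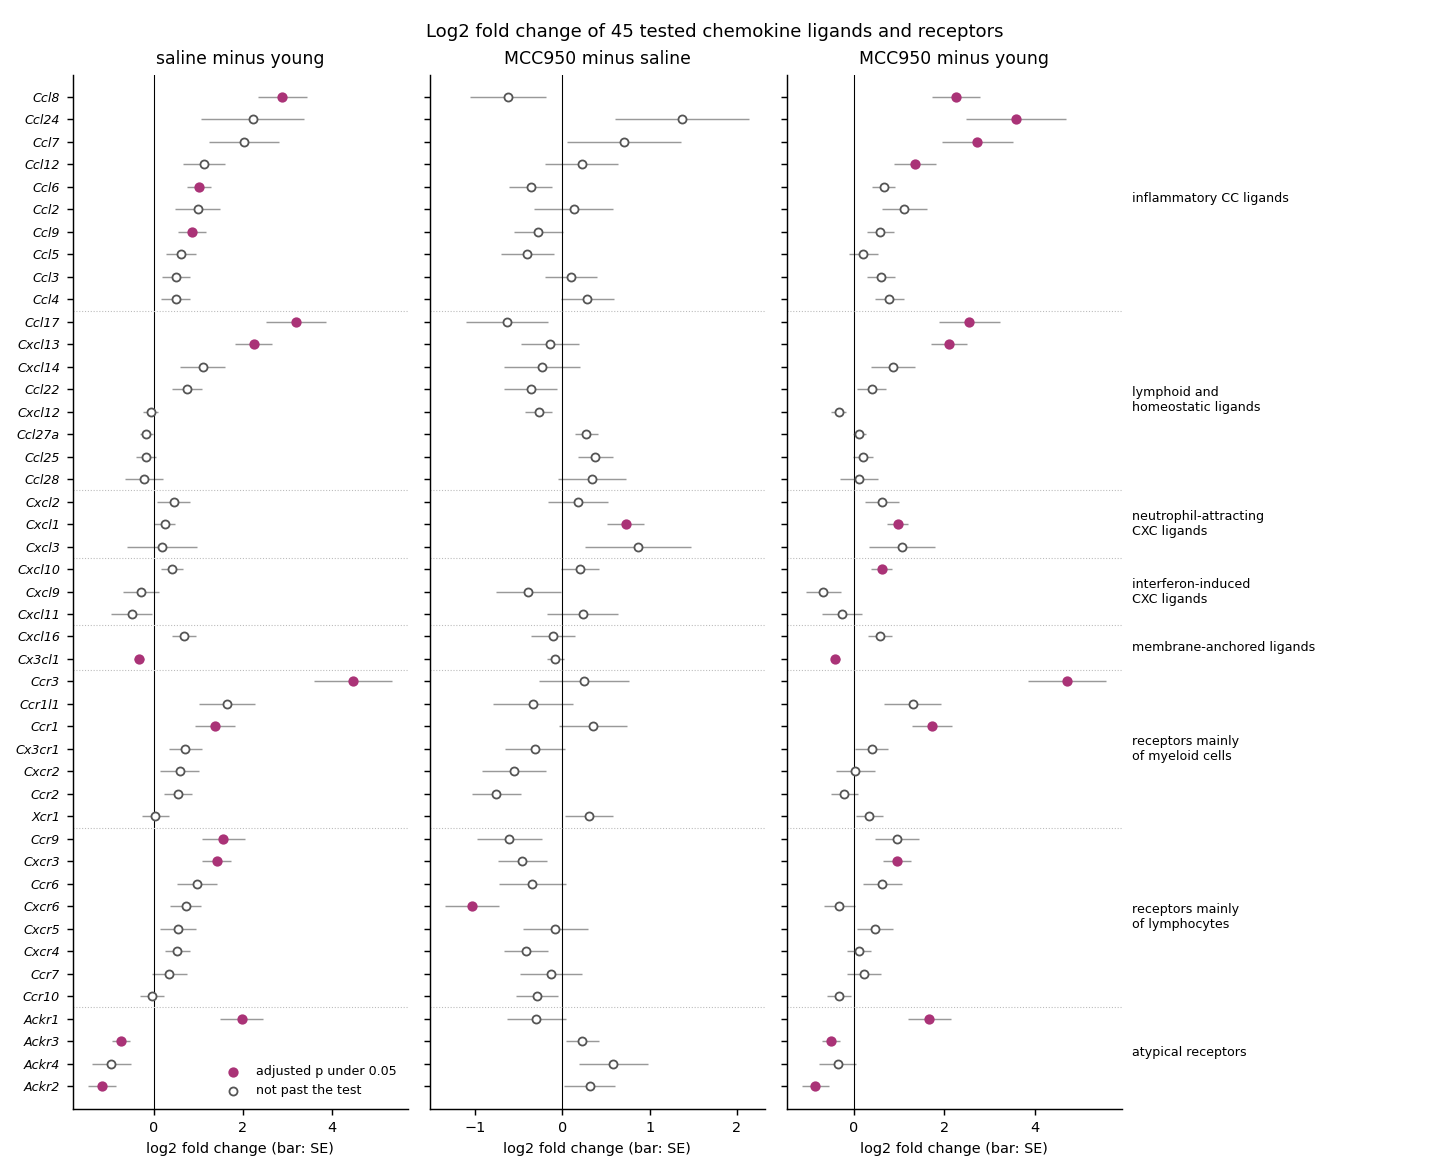
Log2 fold change (point) and SE (bar) of 45 tested members, grouped by role, in 3 comparisons: saline minus young, MCC950 minus saline, and MCC950 minus young; the 3 horizontal axes differ in range, and filled points have an adjusted p under 0.05. Inflammatory CC ligands and myeloid receptors lie right of 0 with age, and with MCC950 only Cxcl1 and Cxcr6 are filled.

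The scale of the libraries matters for the comparison with MCC950. Genes of the mitochondrial genome took 63.0% to 79.2% of the counts in saline and 49.9% to 63.7% in MCC950 libraries. With total counts in place of TMM factors the median of all genes moved by 0.42 on the log2 scale, 7 of the 46 members were higher and 0 were lower, where 39.1% of all genes were higher and 0.36% were lower. The proximal tubule score as a covariate gave 5 members higher, where 2.45% of all genes were higher. Cxcl1 was higher in both of these fits. All 10 proximal tubule markers were positive with MCC950 and 6 rose.

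Compared with young mice, MCC950-treated mice had 12 members higher (Ccl7, Ccl8, Ccl12, Ccl17, Ccl24, Cxcl1, Cxcl10, Cxcl13, Ccr1, Ccr3, Cxcr3 and Ackr1) and 3 lower (Cx3cl1, Ackr2 and Ackr3). Of all genes tested, 21.8% were higher and 16.5% were lower, and the groups did not overlap in 7.94% of genes and in 1 member, Ccr3. This comparison shares its young libraries with the comparison by age. The log2 fold changes for the members higher in both, by age and with MCC950 against young, were 2.88 and 2.26 for Ccl8 and 2.24 and 2.10 for Cxcl13. They were 4.47 and 4.72 for Ccr3, and 3.18 and 2.55 for Ccl17. Ccr1 gave 1.37 and 1.72, Cxcr3 1.41 and 0.95, and Ackr1 1.97 and 1.67. Ackr2 gave -1.16 and -0.85, Ackr3 -0.73 and -0.51, and Cx3cl1 -0.33 and -0.41. Cxcl1 had a log2 fold change against young of 0.97 (SE 0.23, adjusted p = 0.00256) and Cxcl10 of 0.61 (SE 0.23, adjusted p = 0.0415), and Cxcl10 lost the threshold in 14 of the 21 fits that left out 1 library (adjusted p of 0.0613 without MCC950 replicate 8).

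MCC950 replicate 8 stood apart in several monocyte attractants. This library held 157.7 CPM of Ccl2, where the next highest MCC950 library held 45.0. Its Ccl7 was at 94.5 CPM (next 9.30), its Ccl12 at 45.2 (next 17.3) and its Ccl24 at 5.56 (next 0.375). It held 51.7 CPM of the receptor Ccr1 (next 15.9), while its Ccr2 was at 39.9 CPM, the second lowest of the group, and its Ccr3 at 0.257 CPM, the lowest. Its macrophage and monocyte markers summed to 4052 CPM and its T cell markers to 76.9 CPM, both the highest sums of the 21 libraries. By the mean log2 level of the T cell list it was not the highest. This library was at 0.71, below the highest MCC950 library at 0.83 and the highest saline library at 1.15. With this library, the log2 fold changes of MCC950 against young were 2.73 (SE 0.78, adjusted p = 0.00960) for Ccl7, 3.59 (SE 1.10, adjusted p = 0.0143) for Ccl24 and 1.35 (SE 0.47, adjusted p = 0.0272) for Ccl12. Without it they were 1.14 (adjusted p = 0.0303), 1.68 (adjusted p = 0.0439) and 0.81 (adjusted p = 0.0839). The log2 fold change of Ccl2 between MCC950 and saline was 0.13 (SE 0.46, adjusted p = 0.876) with this library and -0.63 (adjusted p = 0.185) without it. Ccr1 against young was 1.72 (SE 0.44, adjusted p = 0.00424) with it and 1.13 (adjusted p = 0.00505) without it. Without this library 10 members were higher and 3 lower in MCC950 than in young mice. The 3 lower were Ackr2, Cx3cl1 and Cxcl9 (log2 fold change -0.96, adjusted p = 0.0458), and Ackr3 was not past the test (adjusted p = 0.0531). In saline mice 14 members were higher than in young mice, with Ccl2, Ccl7, Ccl12 and Ccl24 added to those of the main fit. The shares of all genes called in this fit are not given here.

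**Figure D4:**
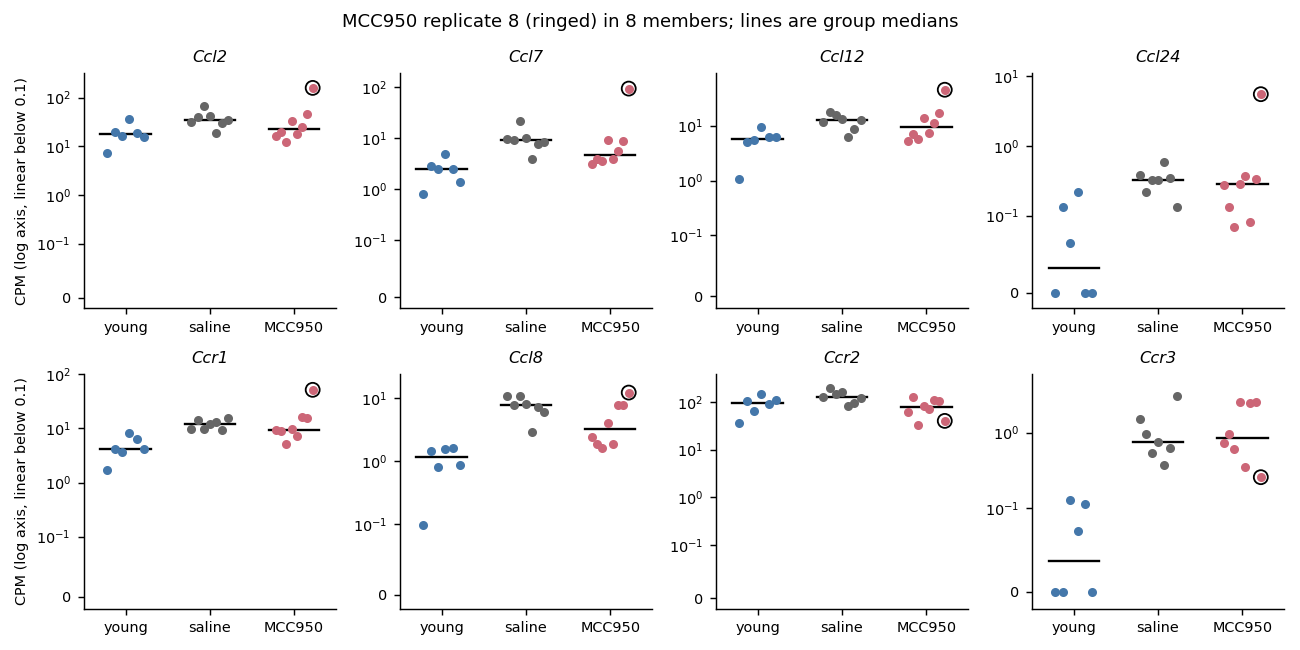
CPM (log axis, linear below 0.1) of 8 members in each library, with group medians as lines and MCC950 replicate 8 ringed. The ringed library is the highest of all for Ccl2, Ccl7, Ccl12, Ccl24, Ccr1 and Ccl8, and lies among the lowest MCC950 libraries for Ccr2 and Ccr3.

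Summed over all 37 ligands, young libraries held 256 to 768 CPM, saline libraries 438 to 986 and MCC950 libraries 511 to 1194. The 23 receptors summed to 199 to 614, 451 to 789.8 and 264 to 713 CPM in the same order. The sums overlapped between all groups. Cxcl16, Ccl3, Cxcr4, Cx3cr1 and Ccl4 held 12.4%, 12.0%, 11.6%, 10.8% and 10.2% of the members' counts, and none of these 5 passed the test. On chromosome 9, the 7 receptors Ccr9, Cxcr6, Xcr1, Ccr1, Ccr1l1, Ccr3 and Ccr2 lie between positions 123767211 and 124109140 (GRCm38). All 7 were positive with age, with log2 fold changes between 0.037 and 4.47. The 3 that rose, Ccr1, Ccr3 and Ccr9, are those given above, where 12.2% of all genes were higher. With MCC950, 3 were positive and 1, Cxcr6, fell, where 4.86% of all genes were lower.

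**Figure D5:**
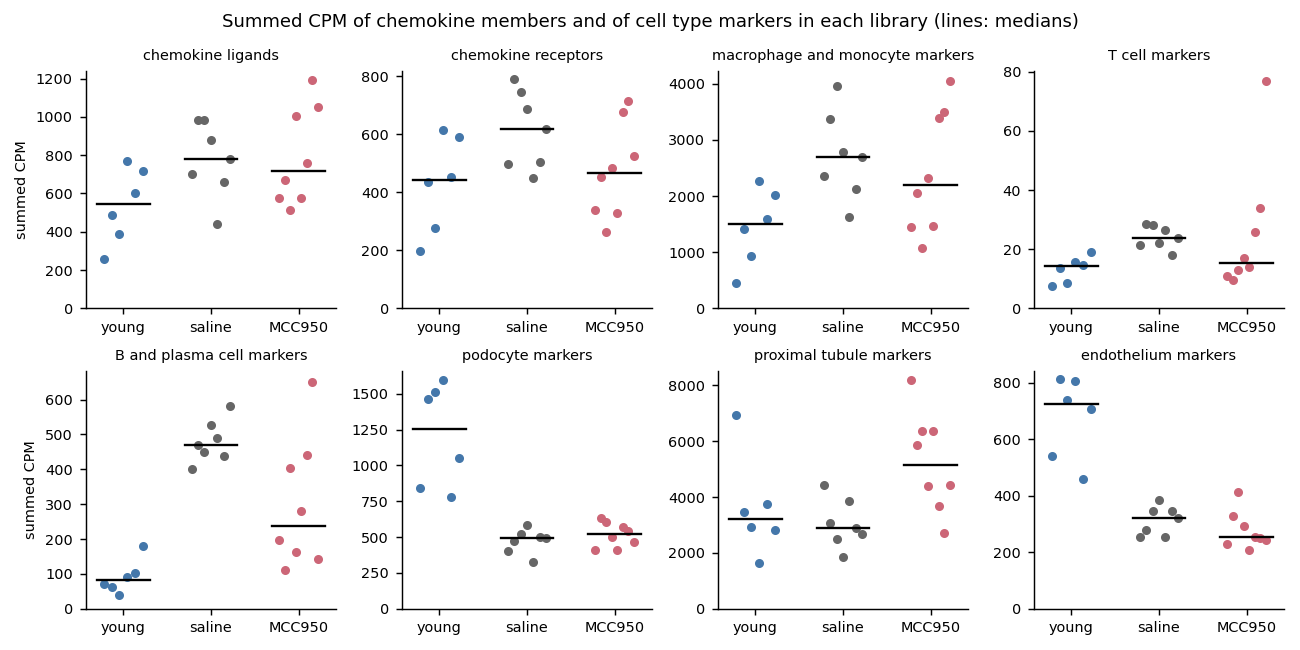
Summed CPM in each library (points, with medians as lines) of the 37 chemokine ligands, the 23 receptors and 6 lists of cell type markers, for 6 young, 7 saline and 8 MCC950 libraries. Receptor and macrophage marker sums overlap between groups, while B and plasma cell markers lie above and podocyte and endothelium markers below all young libraries in the saline group.

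The 14 members that were not tested were Ccl11, Ccl19, Ccl19-ps1, Ccl20, Ccl21a, Ccl21b, Ccl21d, Ccl27b, Cxcl5, Cxcl17, Xcl1, Ccr4, Ccr8 and Cxcr1, each with 10 or more counts over all 21 libraries. Ccl21a, Ccl21b and Ccl21d, the Ccl27 pair and the Ccl19 copies are near-identical, so how their reads were shared cannot be known from the counts. The tested members not given by library were Ccl3, Ccl4, Ccl22, Ccl25, Ccl27a, Ccl28, Cxcl2, Cxcl3, Cxcl11, Cxcl14, Ccr1l1, Ccr6, Ccr10, Cxcr2, Xcr1 and Ackr4. Their log2 fold changes lay between -0.95 and 1.64 with age and between -0.55 and 0.87 with MCC950, and none passed the test in any comparison.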

How the data were processed

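Messenger RNA of podocyte fractions from 21 mice (6 young, 7 saline, 8 MCC950, as the labels group them) was sequenced after TruSeq library preparation. The study states 5 animals at 4 months; 6 libraries are labelled young and none was left out. Per the labels, reads were trimmed with Trim Galore, aligned to mm10 (GRCm38) with Bowtie2 and counted per gene with featureCounts. The deposited tables hold raw counts for 27179 Entrez genes, which the authors did not normalize. The annotation release, the strand setting and the handling of reads with several alignments are not given in the sources used here. Bowtie2 does not split reads over introns, which can lower counts of genes with short exons. Among genes with 1 to 10 counts, 71.9% to 78.3% had an even count, so low counts often come in pairs and are less precise than single reads.

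Gene names came from RefSeq on GRCm38.p6 (25275 numbers) and GENCODE (18), with 1886 unnamed. Tests on the counts used the quasi-likelihood F test of edgeR 4.0.16 (R 4.3.3; TMM factors, filterByExpr by group, all 3 groups in 1 fit, Benjamini-Hochberg adjustment over 16377 genes, threshold 0.05). The SE is the log2 fold change over the square root of F. CPM used TMM-scaled library sizes, and marker scores were mean log2 CPM with a prior count of 2, compared by exact permutation tests (scipy 1.17.1; pandas 2.3.3, numpy 2.4.6 and matplotlib 3.10.9 in Python 3.11.15). The workflow was tested on simulated data. Alternatives were DESeq2 1.42.0, other factors, filters, depths, samples and covariates, and 21 fits that left out 1 library. Members named with full values are those past the test in any comparison and a fixed list of 19. Members, lists and tests were chosen with earlier results of these data known. The authors' normalized table was not used. Promoter windows are the 250 bases before the RefSeq start site; 45 of 60 members matched. Results for some genes are not reported here, though the counts of members and list genes include them.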

Additional observations from a re-analysis of the deposited data

Results flagged for a closer look

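Within groups of 6 to 8 libraries, 9 of the 90 sets of values examined (30 members in 3 groups) had 1 library far from the rest. The measure was the ratio of its gap to the whole range, with limits that mark about 1 in 20 sets of normal values by chance. CPM were not shown to be normal and the members share libraries, so the 9 sets cannot be read against that rate. MCC950 replicate 8 was set apart in 5 members: Ccl2 at 157.7 CPM, Ccl7 at 94.5, Ccl12 at 45.2, Ccl24 at 5.56 and Ccr1 at 51.7 CPM. Saline replicate 3 stood apart in Ccl7, at 21.8 CPM against 10.2 in the next library. Saline replicate 7 stood apart in Ccr3, at 3.03 CPM against 1.501. Young replicate 2 stood apart in Ccl17, at 0.331 CPM against 0.112, and in Ccl5, at 8.65 CPM against 4.59.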

How the results depend on the processing

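Of the tested values of named members under all alternatives, 1781 kept their direction and side of the threshold, 138 lost the threshold, 14 gained it and 52 changed direction; the cause was not tested except where fewer genes were tested. The limits are the unknown annotation and strand setting, the mixed cells of the fraction, depth that went with age, and few young counts of Ackr1, Ccl17, Ccr3 and Ccr9.

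The number of members higher with age was 10 of 46 tested. It became 16 in DESeq2, whose fit kept all 60 members and called 10.7% of all genes higher. It was 5 among genes with 10 or more counts in every library (fewer genes were tested, and 12.8% of them were higher). It was 1 with the podocyte score (0.0794%) and 2 with the T cell score (1.01%) as a covariate. The number lower with age was 3 and became 0 with the podocyte score (0.0122% of all genes were lower). It was also 0 with the T cell score (1.66%), and 1 at an unadjusted p under 0.05 with over 2-fold change. The shares of all genes at the 2-fold threshold are not given here. The number higher with MCC950 was 1 and became 7 with total library size only (39.1% of all genes were higher). It was 5 with the proximal tubule score (2.45%). It was 0 with thinned libraries (7.84%), with the podocyte score (16.4%), with the T cell score (5.55%) and at the 2-fold threshold. The number lower with MCC950 was 1 and became 3 in DESeq2 (6.15% of all genes were lower). It was 0 with total library size only (0.36%) and with 10 or more counts in every library (6.14%). With thinned libraries (5.89%) and with the T cell score (5.26%) it was also 0. The number higher in MCC950 than young was 12 and became 26 with total library size only (39.5% of all genes were higher) and 24 with the proximal tubule score (21.4%). It was 7 with only the 2 groups in the fit (16%) and 7 with the macrophage and monocyte score (26.4%). With the T cell score it was 6 (18.8%), and with the podocyte score 2 (0.409%). The number lower in MCC950 than young was 3 and became 7 with the macrophage and monocyte score (19% of all genes were lower). It was 0 with total library size only (4.03%), with the podocyte score (0.818%) and at the 2-fold threshold.

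Leaving out 1 library gave 7 to 14 members higher and 2 to 4 lower with age, 0 to 1 higher and 0 to 2 lower with MCC950, and 9 to 16 higher and 1 to 3 lower in MCC950 than young. The shares of all genes called in these fits are not given here. Cxcl1 was not called without saline replicate 4 or 7. No member was lower with MCC950 without saline replicate 2, 2 were without young replicate 1 or MCC950 replicate 2, and 1 was lower in MCC950 than young without MCC950 replicate 4. Over these fits the log2 fold change ranged from -0.15 to 0.0032 for Cxcl12 with age, from -0.63 to 0.33 for Ccl2, from -0.28 to 0.14 for Cxcl13 and from -0.26 to 0.073 for Cxcr5 with MCC950. The adjusted p of Cxcl1 with MCC950 ranged from 0.000892 to 0.0894 over all alternatives.

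Libraries with the same replicate number were not paired, since the numbers are not stated to pair animals. Their correlations ranged from -0.0614 to 0.347 between young and saline and from -0.144 to 0.335 between saline and MCC950. Between young and MCC950 they ranged from -0.0128 to 0.401. With no reference for unpaired libraries, these values cannot decide whether the same number marks a shared batch. With the replicate block 15 members were higher and 3 lower with age, 1 was higher and 0 were lower with MCC950, and 8 were higher and 4 lower in MCC950 than young. Of all genes, this fit called 13.5% higher and 11.5% lower with age, and 14.5% and 5.52% with MCC950. For MCC950 against young the shares were 23.6% and 15.3%. The block changed the log2 fold change of Ccl2 with MCC950 to -0.69.

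Of the values that changed direction, none was past the test. With the macrophage and monocyte score, the log2 fold changes with age were -0.19 for Ccl2, -0.068 for Ccr2, -0.21 for Cx3cr1, -0.051 for Cxcl1, -0.14 for Cxcl10, 0.037 for Cxcl12 and -0.067 for Cxcr4, and with MCC950 they were 0.044 for Cxcl13 and 0.10 for Cxcl16. With the T cell score they were -0.052 for Ccl2, -0.21 for Ccl5, -0.32 for Ccr7, 0.16 for Cxcl12, -0.12 for Cxcr4 and -0.030 for Cxcr5 with age, and 0.041 for Ackr1, 0.23 for Ccr7, 0.076 for Cxcl16 and 0.26 for Cxcr5 with MCC950. With the podocyte score they were 0.093 for Ackr2, -0.69 for Ccr7 and -0.50 for Cxcr5 with age, 0.14 for Ccr7 and 0.21 for Cxcr5 with MCC950, and 0.091 for Ackr2 in MCC950 against young. With the proximal tubule score the values with MCC950 were -0.055 for Ackr3, 0.23 for Ccl8, 0.24 for Ccr7, 0.63 for Cx3cr1, 0.44 for Cxcl13, 0.61 for Cxcl16, 0.29 for Cxcl9, 0.26 for Cxcr4 and 0.28 for Cxcr5. With total library size only, which moved the median of all genes by 0.42, they were 0.12 for Ackr1, 0.00069 for Ccl5, 0.30 for Ccr7, 0.32 for Cx3cl1, 0.14 for Cx3cr1, 0.16 for Cxcl12, 0.29 for Cxcl13, 0.36 for Cxcl16, 0.080 for Cxcl9, 0.027 for Cxcr4 and 0.36 for Cxcr5.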

Other observations

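Outside the symbol rule, the platelet chemokine Pf4 was at 0.946 to 3.14 CPM in young, 4.19 to 12.6 in saline and 2.83 to 63.0 in MCC950 libraries. Its MCC950 mean was 12.4 ± 20.6 CPM (SD, n = 8), so the SD was above the mean. The log2 fold change of Pf4 was 1.82 (SE 0.67, adjusted p = 0.0527) with age and 2.51 (SE 0.67, adjusted p = 0.00617) in MCC950 against young. A fit of Pf4 without its highest library is not given here. Ppbp, another chemokine outside the symbol rule, was lower in MCC950 against young (log2 fold change -1.18 (SE 0.34, adjusted p = 0.00949)). Mif, a cytokine that also binds Cxcr2 and Cxcr4, rose with MCC950 from a mean of 19.0 ± 4.11 CPM (SD, n = 7) to 29.3 ± 7.38 CPM (SD, n = 8), with a log2 fold change of 0.62 (SE 0.15, adjusted p = 0.0113) in edgeR. Gnai1, the Gi subunit that fell with age, rose with MCC950 (log2 fold change 0.50 (SE 0.13, adjusted p = 0.0149)). Both comparisons use the same saline libraries. Only Gnai1, 1 of 30 signaling genes, was past the test with MCC950, where 11.9% of all genes were higher and 4.86% were lower.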
